A study of Homo sapiens with 8 samples.

Results

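HepG2 cells given bone morphogenetic protein 6 (BMP6) were compared with HepG2 cells given vehicle alone. The comparison takes 5 of the 8 libraries of the series, chosen by their titles: 2 labelled BMP6, called BMP6 1 and BMP6 2, and 3 labelled control, called DMSO 1 to 3. BMP6 was given at 50 ng/ml for 18 h, after the cells had been moved to 1% serum and left for 8 h. Every well, those with BMP6 included, held 1% DMSO, so both groups share the solvent and the low serum. HepG2 is an established line from a human liver carcinoma, widely used as a model of hepatocytes, and no other cell model was used. The other 3 libraries, from cells given genistein, enter only the estimate of spread between libraries. The libraries are biological replicates by the design text, but no label says that they came from separate cultures, so p-values measure the spread between these libraries, which may be technical.

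BMP6 is a secreted ligand of the TGF-beta superfamily. In the liver it is made chiefly by endothelial cells when iron stores are high. It binds type I and type II BMP receptors on hepatocytes, aided by the coreceptor hemojuvelin, and the receptors phosphorylate SMAD1, SMAD5 and SMAD8 (SMAD9), which enter the nucleus with SMAD4. Their best known hepatocyte target is HAMP, the gene of hepcidin, the hormone that removes the iron exporter ferroportin from cell surfaces. The same SMADs raise ID1 to ID4, which encode dominant negative helix-loop-helix proteins, and a set of feedback inhibitors, among them SMAD6, SMAD7 and BAMBI. They also raise ATOH8, a bHLH factor.

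SMAD1 and SMAD5 bind the GC-rich core GGCGCC and STAT3, the factor downstream of interleukin 6, binds TTCNNNGAA (N is any base). Both words occur close together ahead of HAMP. The 4 stretches below are shown because they hold such a word ahead of a gene of the BMP response. They run 5′ to 3′ on the strand of the gene, come from the RefSeq promoter table (GRCh38.p14), and carry GGCGCC, TTCNNNGAA and GTCTAGAC in capitals. HAMP is shown from 250 bases before its start to the base before it (chr19:35282278-35282527, + strand), with GGCGCC beginning 105 bases and TTCTTGGAA 93 bases before the start. FURIN is shown for 120 bases (chr15:90871420-90871539, + strand), with GGCGCC at 102 bases. BAMBI is shown for 220 bases (chr10:28677301-28677520, + strand), with GGCGCC at 209, 196 and 181 bases. SMAD6 is shown for 60 bases (chr15:66702176-66702235, + strand), with GTCTAGAC, the palindrome bound by SMAD3 and SMAD4, at 12 bases.
HAMP: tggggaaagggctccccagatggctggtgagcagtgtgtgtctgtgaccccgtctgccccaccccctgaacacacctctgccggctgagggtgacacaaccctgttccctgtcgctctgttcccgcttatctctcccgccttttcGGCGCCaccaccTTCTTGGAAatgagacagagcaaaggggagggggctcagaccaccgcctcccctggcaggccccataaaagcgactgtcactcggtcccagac
FURIN: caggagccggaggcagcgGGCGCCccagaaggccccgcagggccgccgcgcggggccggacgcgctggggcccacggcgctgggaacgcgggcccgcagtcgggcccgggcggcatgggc
BAMBI: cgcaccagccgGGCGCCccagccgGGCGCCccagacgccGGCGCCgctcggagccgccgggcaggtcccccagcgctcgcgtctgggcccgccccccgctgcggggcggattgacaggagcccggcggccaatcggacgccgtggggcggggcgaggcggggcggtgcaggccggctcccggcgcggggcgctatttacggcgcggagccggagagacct
SMAD6: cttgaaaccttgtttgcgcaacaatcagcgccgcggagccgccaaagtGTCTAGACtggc
On either strand within 250 bases before the start, GGCGCC occurs in 16.1% of the 27305 promoters of the table and in 26.1% of those of tested genes. It occurs in 5 of 22 matched genes called higher after BMP6 and in 4 of 31 called lower. GTCTAGAC occurs in 0.176% of all promoters and TTCNNNGAA in 6.78%. The windows of ID1, ID2, ID3, ID4, SMAD6, SMAD7, SMAD9, ATOH8 and LCN15 hold no GGCGCC, which says only that these letters are not in this window. A match is a description of the sequence and not a measured binding site.

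Transcript levels are FPKM values, fragments scaled by the authors to transcript length and library size, for 20897 Ensembl genes (hg18). The depth of the libraries is unknown, so neither counting intervals nor detection limits can be given, and a gene at exactly 0 is described as listed at 0. FPKM totals ranged from 1704599 to 3105197. Across the 12341 tested genes, those with at least 1 FPKM in at least 2 of the 5 libraries, Pearson's r of log2(FPKM + 1) was 0.875 to 0.961 within DMSO and 0.839 between the BMP6 libraries. BMP6 1 was closer to a genistein library (0.887) and BMP6 2 to DMSO 3 (0.910) than either was to the other. DMSO 1 had 1375 tested genes at 0, against 120 to 751 in the other libraries of the comparison. BMP6 1 stood apart by GC content: its median log2 difference from the DMSO mean went from 0.35 in the fifth of genes with the lowest transcript GC content to -1.12 in the fifth with the highest, while BMP6 2 went from 0.00457 to 0.52. Results of a fit with values centred within classes of GC content are given below beside the genes they concern.

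**Figure D1:**
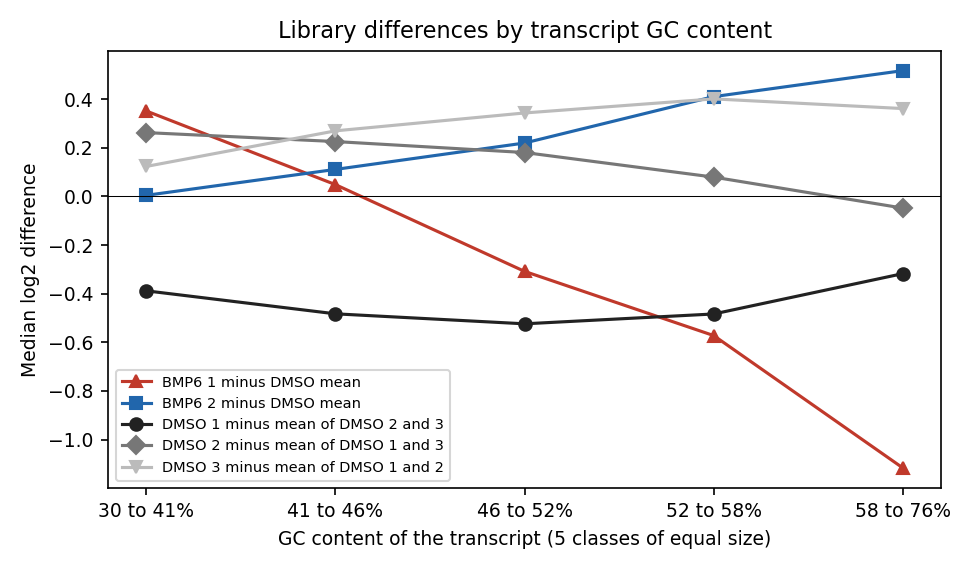
Median log2 difference of each library (y axis) by class of transcript GC content (x axis, 5 classes of 2343 tested genes each), for each BMP6 library against the DMSO mean and for each DMSO library against the mean of the other DMSO libraries. BMP6 1 falls from 0.35 to -1.12 across the classes, BMP6 2 rises from 0.00457 to 0.52, and the lines of the DMSO libraries are flatter than that of BMP6 1.

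In the fit of log2(FPKM + 1), 43 genes were higher and 54 lower after BMP6 at an adjusted p under 0.05, the threshold meant below by "called" (limma, Benjamini-Hochberg over all tested genes). These are 0.348% and 0.438% of the 12341 genes tested. At an unadjusted p under 0.05 the counts were 1041 higher and 1327 lower, 8.44% and 10.8% of the genes. Both BMP6 libraries lay above all 3 DMSO libraries for 16.2% of all tested genes and below all 3 for 17.7%, and all 97 called genes are among them. Of the 97, 53 had a group listed at 0 throughout: 14 of the higher genes in all DMSO libraries and 39 of the lower genes in both BMP6 libraries. Libraries that all read 0 have no spread among themselves, the log2 change of such a gene depends on the pseudocount, and no fold is given for it. A gene at 0 in all DMSO libraries was tested only if both BMP6 libraries reached 1 FPKM. Its lack of overlap was thus fixed by the filter. The median change of all tested genes was -0.05.

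The calls rested on few libraries. The fit without BMP6 2, with BMP6 1 alone in its group, called more genes than any other fit. A call kept there therefore says little about stability. Of the 97 called genes, 97 were still called without BMP6 2, 78 without DMSO 1, 14 without BMP6 1, 13 without DMSO 3 and 5 without DMSO 2. The 5 called in every such fit were HAMP, LCN15 and CRYAB among the rises, and SPINK1 and SMPX among the falls. All 5 are among the 53 called genes, described above, in which the libraries of 1 group have no spread among themselves. For the rises the filter also left no room for the groups to overlap. No gene with a nonzero value in all 5 libraries was called in every such fit. With DMSO 1 and BMP6 1 both left out, 46 of the 97 were called. With the 5 libraries alone, so that the genistein libraries no longer add to the estimate of spread, 14 of the 97 were called. Every other gene below that rose or fell therefore lost its call without at least 1 library.

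Other scalings of the libraries called more genes. Median-of-ratios scaling called 1.22% of the tested genes higher and 1.79% lower, quantile normalization 1.15% and 1.73%, and centring within GC classes (GC centring) 2.48% and 2.47% of the 11715 genes with a GC content. These are the 3 other scalings meant below, and calls under them are given by list or by gene where they differ. "Rose" and "fell" are kept for calls without them.

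**Figure D2:**
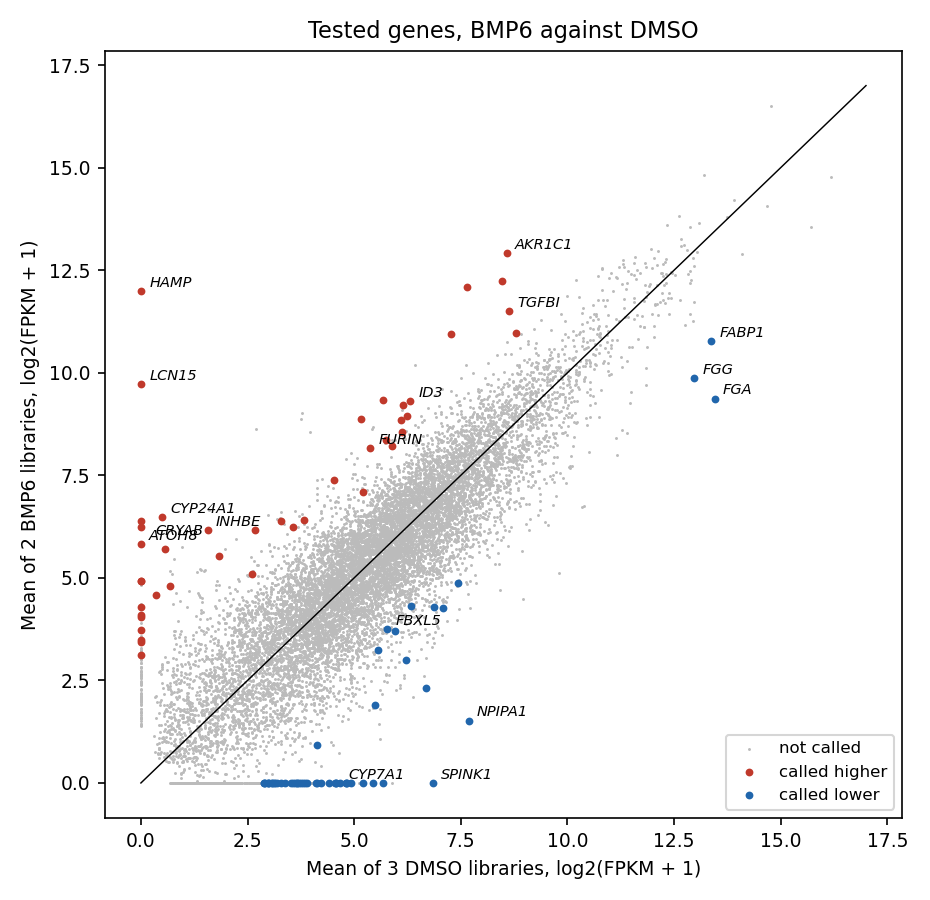
Mean log2(FPKM + 1) of the 2 BMP6 libraries (y axis) against that of the 3 DMSO libraries (x axis) for the 12341 tested genes, with the line of equality. The 43 genes called higher (red) and the 54 called lower (blue) include many on an axis, where 1 group is listed at 0, with HAMP the highest point on the y axis at a BMP6 mean of 11.99.

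HAMP was the largest change of all tested genes. It (ENSG00000105697; hg18, chr19:40465250-40467886) was listed at 0 in DMSO 1, 2 and 3, and stood at 2563 FPKM in BMP6 1 and 6425 FPKM in BMP6 2. With DMSO at 0 throughout, the filter itself left no room for the groups to overlap. The BMP6 libraries differ from each other, with BMP6 2 the higher. The difference was 11.99 ± 0.46 on the log2 scale (SE; limma adjusted p = 4.16e-05). It was 15.31 with a pseudocount of 0.1 and 9.67 with 5, and HAMP was called in every alternative fit that tested it, at an adjusted p of at most 0.00241. An exact permutation test over the 5 libraries (two-sided) had p = 0.2, the smallest that 3 libraries against 2 allow.

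Of 30 BMP and SMAD target genes listed, 8 were at 0 in all 5 libraries and 22 were tested. HAMP, ATOH8 and ID3 rose and none fell, 14 were higher and 2 lower at an unadjusted p under 0.05, and both BMP6 libraries lay above all DMSO libraries for 12. HAMP, ATOH8, HEY1 and ID4, at 0 in all DMSO libraries, are among the 12 by the filter alone. The filter also allowed these genes no negative change. They count in the medians below, and HAMP, ATOH8 and HEY1 are among the 14. The median log2 change of the 22 was 1.49, against -0.05 for all genes. It was 1.07 in BMP6 1 and 2.00 in BMP6 2, where all genes had -0.37 and 0.24. Medians of other lists ran from -1.62 for replication-dependent histones to 1.90 for 3 activin and inhibin subunits. Hypoxia and glycolysis had 1.45 and housekeeping genes 0.84, so a median of this size is not particular to BMP targets. The target list was chosen with results of these data known, and these counts describe it.

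ATOH8 was listed at 0 in all DMSO libraries and stood at 23.8 FPKM in BMP6 1 and 130 in BMP6 2 (log2 change 5.83 ± 0.71, limma adjusted p = 0.0201). ID3 stood at 94, 50.3 and 104 FPKM in DMSO 1, 2 and 3 and at 394 and 1012 in BMP6 1 and 2. It rose 7.92-fold on the FPKM + 1 scale (log2 change 2.99 ± 0.51, limma adjusted p = 0.0472). ATOH8 lost its call without DMSO 2 or DMSO 3, and ID3 without BMP6 1 or any of the DMSO libraries, at adjusted p of at most 0.199. For ID3 every BMP6 value lies above every DMSO value. For ATOH8, at 0 in all DMSO libraries, the filter allowed no other order.

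ID2 had DMSO values of 275, 332 and 385 FPKM and BMP6 values of 1064 and 1810 FPKM, which do not overlap, and missed the threshold (log2 change 2.08 ± 0.38, limma adjusted p = 0.0573). ID2 was called under median-of-ratios scaling, quantile normalization and GC centring, with log2 changes of 2.16, 1.96 and 2.23. ID1 had 1912 FPKM in DMSO 1, 426 in DMSO 2 and 593 in DMSO 3, against 804 in BMP6 1 and 5603 in BMP6 2. Its groups overlap because DMSO 1 is above BMP6 1, and the difference of 1.43 ± 0.92 was not called (limma adjusted p = 0.413). ID4 was listed at 0 in all DMSO libraries and stood at 1.02 and 2.53 FPKM after BMP6, close to the low end of tested values. HEY1, a transcriptional repressor that also answers to Notch, had no value above 0 in DMSO, and 4.14 and 4.89 FPKM in BMP6 1 and 2 (log2 change 2.46 ± 0.46, limma adjusted p = 0.0573). HEY1 was called under median-of-ratios scaling and GC centring.

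The inhibitory SMADs are feedback genes that block BMP receptors and receptor-regulated SMADs. SMAD7 stood at 8.93, 12 and 16.4 FPKM in DMSO and at 27.7 and 65.7 FPKM in BMP6 1 and 2, without overlap (log2 change 1.74 ± 0.49, limma adjusted p = 0.134). SMAD6 was listed at 0 in DMSO 1, stood at 5.45 and 10.4 FPKM in DMSO 2 and 3, and at 8.43 and 77.8 FPKM after BMP6. BMP6 1 lies within the DMSO range for SMAD6, and only BMP6 2 is above it. SMAD9, the gene of SMAD8, had DMSO values of 7.65, 7.26 and 10.2 FPKM and BMP6 values of 70.9 and 21 FPKM, the reverse order of the BMP6 libraries. BAMBI, the gene of a decoy receptor, whose promoter holds GGCGCC 3 times, stood at 38, 66.9 and 75.1 FPKM in DMSO and at 40.2 and 88.4 FPKM after BMP6. Its difference of 0.05 ± 0.51 is smaller than its error, and its sign differed between fits.

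Other targets went both ways. GATA2 (15.8, 16.5 and 17 FPKM in DMSO, 31.9 and 77.7 after BMP6), SPRY4, an inhibitor of receptor tyrosine kinase signalling (36.4, 29.7 and 33.3 against 64.3 and 101), and SNAI1, the repressor Snail (0, 4.54 and 6.38 against 23 and 37.4), had BMP6 values above every DMSO value and were not called. GC centring called all 3 of them higher, median-of-ratios scaling SPRY4 and quantile normalization SNAI1. GATA6, an endodermal factor, stood at 19.1, 15.6 and 19.1 FPKM in DMSO and at 1.15 and 3.11 after BMP6, and MSX1, a homeobox gene, at 327, 436 and 315 against 21.6 and 179. Neither was called (GATA6 log2 change -2.66 ± 0.48, limma adjusted p = 0.0547). GATA6 was called lower under median-of-ratios scaling, quantile normalization and GC centring. The number of targets called higher was 7, 5 and 9 in those 3 fits, with GATA6 the 1 called lower in each. The numbers of targets higher and lower were 1 and 0 without DMSO 2 or DMSO 3. Over all 12341 tested genes those fits called 3 and 2 without DMSO 2, and 9 and 6 without DMSO 3.

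**Figure D3:**
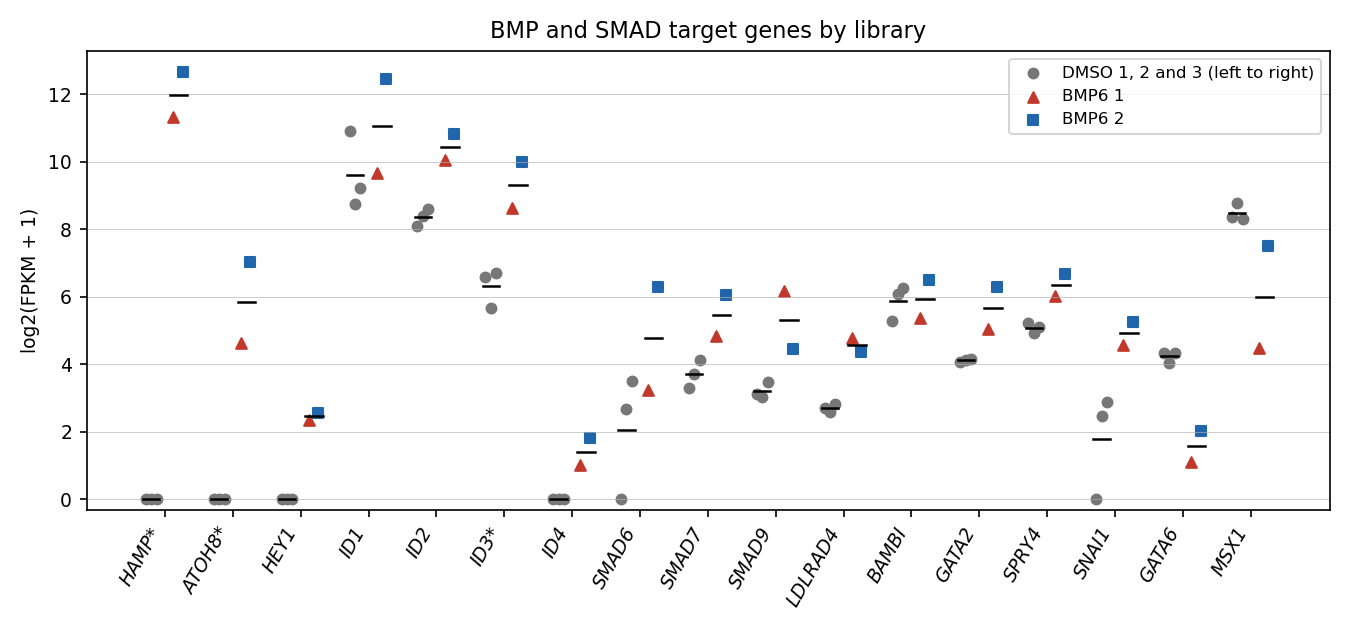
Log2(FPKM + 1) of 17 BMP and SMAD target genes or regulators (y axis, by gene on the x axis) in each DMSO library (grey circles, DMSO 1, 2 and 3 from left to right), BMP6 1 (red triangles) and BMP6 2 (blue squares), with bars at group means and asterisks on called genes. HAMP, ATOH8, HEY1 and ID4 are at 0 in every DMSO library, ID1 and BAMBI overlap between groups, and GATA6 and MSX1 are lower in both BMP6 libraries.

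Upstream of the targets, none of 16 tested receptors and coreceptors and none of 21 SMADs and SMAD regulators was called. Nor was any of 8 tested antagonists and other extracellular regulators, or of 4 tested ligands. Transcripts of the type I receptors BMPR1A (43.7, 15.4 and 13.9 FPKM in DMSO, 10.7 and 15.2 after BMP6) and ACVR1 (20.2, 20.2 and 15.9 against 72.2 and 22.3) and of the type II receptor BMPR2 (9.95, 7.75 and 9.44 against 20.1 and 10) were present in every library. BMPR1B, ACVRL1, RGMA, ACVR1C and the hemojuvelin gene HJV were listed at 0 in all 5. ENG, the coreceptor endoglin, was the receptor gene higher at an unadjusted p under 0.05 (0, 2.88 and 3.28 FPKM against 4.72 and 14.8), and it was called under quantile normalization. TMPRSS6, the protease that cleaves hemojuvelin, stood at 21.1, 19.8 and 24.2 FPKM in DMSO and at 23.2 and 32 after BMP6, and its change of 0.32 ± 0.39 is smaller than its error.

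The signal transducers SMAD1 (3.6, 8.88 and 9.86 FPKM against 35.6 and 6.55) and SMAD4 (26.7, 31.7 and 42.1 against 92.7 and 31.7) were highest in BMP6 1 and within the DMSO range in BMP6 2, and SMAD5 changed by 0.01 ± 0.38. Of the 21 SMADs and regulators, 7 were higher and 1 lower at an unadjusted p under 0.05. Besides SMAD6, SMAD7 and SMAD9 they were SMAD2, the adaptor ZFYVE9, the corepressor TGIF1 and LDLRAD4, an inhibitor of TGF-beta signalling, with the ubiquitin ligase SMURF2 lower. LDLRAD4 stood at 5.49, 5.02 and 6.06 FPKM in DMSO and at 26.3 and 19.6 after BMP6, with close values within each group (log2 change 1.86 ± 0.42, limma adjusted p = 0.088). SMAD7 was called under median-of-ratios scaling, and SMAD7 and LDLRAD4 under GC centring.

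CHRD, the gene of the BMP antagonist chordin, was the antagonist with the largest difference. It stood at 914, 624 and 719 FPKM in DMSO and at 30.3 and 192 FPKM after BMP6, and the groups do not overlap (log2 change -3.26 ± 0.70, limma adjusted p = 0.0746). CHRD was called lower under median-of-ratios scaling, quantile normalization and GC centring, at adjusted p of 0.0318, 0.0188 and 0.00989, and was not called with DMSO 1 and BMP6 1 left out (log2 change -1.80, adjusted p = 0.145). FSTL3, a follistatin-like inhibitor of activin, had 37.9, 46.1 and 55.6 FPKM against 6.52 and 24.5. The 11 antagonists and other extracellular regulators not tested, NOG, GREM1 and ERFE among them, were listed at 0 in all 5 libraries. Of 13 ligand genes in the files, 7 were listed at 0 in all 5, and the 2 most abundant were BMP4 (957, 855 and 629 FPKM in DMSO against 239 and 953) and GDF15, a stress-induced relative (417, 759 and 811 against 346 and 4263), for both of which the groups overlap. The BMP6 transcript itself stood at 15.9 FPKM in DMSO 1 and under 1 in the other 4 libraries.

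Iron handling genes are the setting of hepcidin, and of 22 tested 1 rose and 1 fell. FURIN, the proprotein convertase that cleaves prohepcidin and hemojuvelin, stood at 59.7, 29.6 and 37.8 FPKM in DMSO and at 299 and 270 FPKM after BMP6. The rise was 6.85-fold on the FPKM + 1 scale, and the BMP6 values are close to each other (log2 change 2.78 ± 0.38, limma adjusted p = 0.0238). FBXL5, the iron-sensing subunit of the ubiquitin ligase that removes iron regulatory proteins, stood at 54.6, 54.6 and 51.5 FPKM in DMSO and at 9.6 and 16 FPKM after BMP6, a fall of 4.06-fold (log2 change -2.02 ± 0.34, limma adjusted p = 0.0458). Both lost their calls without BMP6 1, DMSO 2 or DMSO 3, and FBXL5 also without DMSO 1, at adjusted p of at most 0.206.

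The other iron genes were not called. CP, the ferroxidase ceruloplasmin (24.3, 35.3 and 40.4 FPKM in DMSO against 520 and 113), TFRC, the transferrin receptor (57.2, 67.4 and 102 against 922 and 158), and SLC11A2, the divalent metal importer (36.8, 53.9 and 58.4 against 271 and 64.9), had BMP6 values above every DMSO value, with BMP6 1 far above BMP6 2 in each. SLC40A1, the iron exporter ferroportin (37.4, 51.8 and 46.4 against 10.1 and 21.6), and SLC25A28, the mitochondrial iron importer mitoferrin-2 (73.7, 150 and 152 against 5.59 and 34.2), had BMP6 values below every DMSO value, with BMP6 1 the lower. SLC25A28 was called lower under median-of-ratios scaling, quantile normalization and GC centring, and CP was called higher under GC centring. The ferritin chains FTH1 (482, 5402 and 6237 against 4774 and 8711) and FTL (20042, 30080 and 29496 against 9000 and 33042) overlapped between groups. Of 14 genes of heme synthesis and breakdown none was called, with 1 higher and 2 lower at an unadjusted p under 0.05. FLVCR1, a heme and choline transporter, stood at 59.5, 98.4 and 49.6 FPKM in DMSO against 19.8 and 19.0 (log2 change -1.72 ± 0.41, limma adjusted p = 0.0963). GC centring called FLVCR1 and PPOX, an enzyme of heme synthesis, lower.

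**Figure D4:**
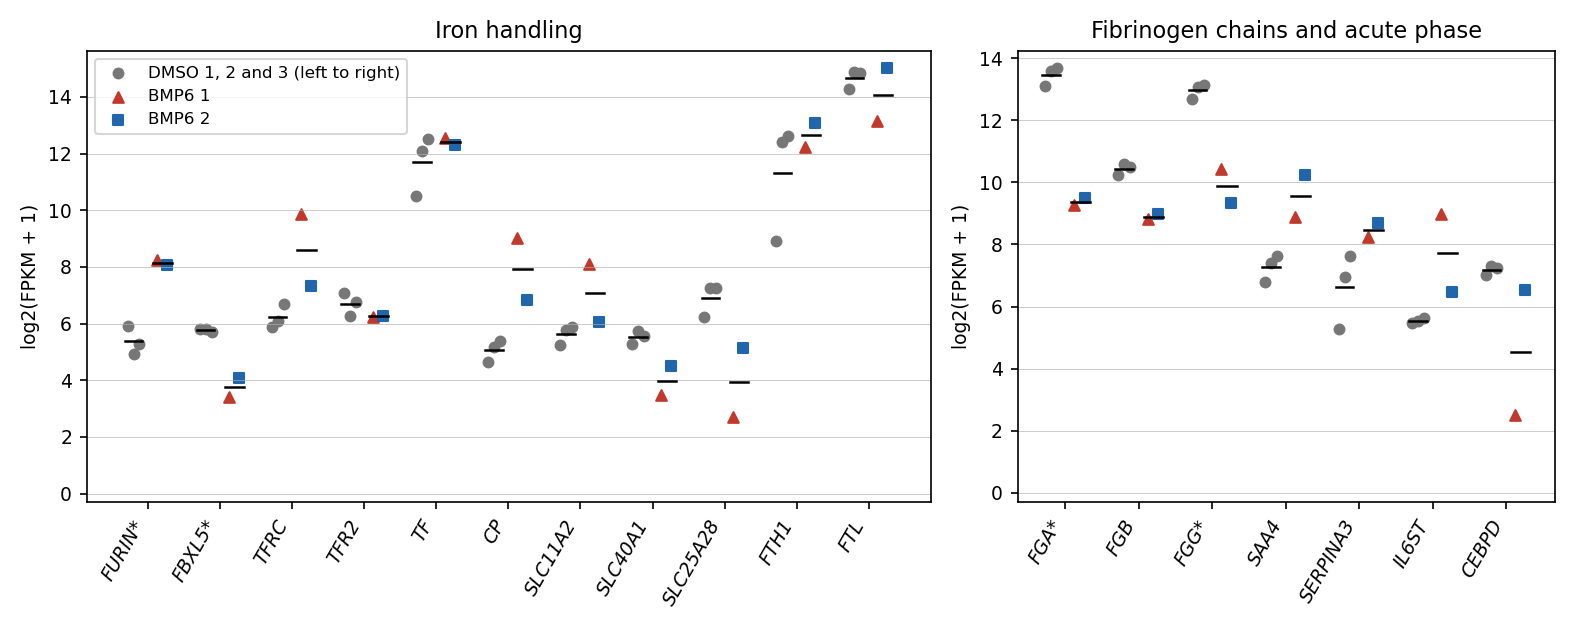
Log2(FPKM + 1) of iron handling genes (left) and of fibrinogen chains and acute phase genes (right) in each DMSO library (grey circles, DMSO 1, 2 and 3 from left to right), BMP6 1 (red triangles) and BMP6 2 (blue squares), with bars at group means and asterisks on called genes. FURIN is higher and FBXL5, FGA and FGG are lower in both BMP6 libraries, while for TFRC, CP and SLC11A2 BMP6 1 lies far above BMP6 2.

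Targets of TGF-beta and activin, which signal through SMAD2 and SMAD3, were tested for 13 genes, of which 2 rose, TGFBI among them, and none fell. TGFBI, a secreted matrix protein, stood at 228, 408 and 663 FPKM in DMSO and at 3064 and 2725 FPKM after BMP6, a 7.30-fold rise (log2 change 2.87 ± 0.50, limma adjusted p = 0.0492). Its BMP6 values are close to each other and far above DMSO. The connective tissue growth factor CCN2 lay lower in both BMP6 libraries (432, 800 and 1042 FPKM against 356 and 341), TAGLN, CCN1 and FN1 overlapped between groups, and the median of the list was 0.04.

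INHBE, the subunit of activin E, a factor secreted by liver, was 1 of 3 tested activin and inhibin subunits and rose. It was listed at 0 in DMSO 1, stood at 4.81 and 3.46 FPKM in DMSO 2 and 3 and at 88 and 56.9 FPKM after BMP6 (log2 change 4.60 ± 0.72, limma adjusted p = 0.0376). INHBC, its neighbour in the family, had 7, 5.87 and 7.45 FPKM against 22.2 and 10.1, and INHA 0, 12.4 and 8.49 against 23.9 and 13.1, both without overlap and not called. TGFBI and INHBE lost their calls without BMP6 1 or DMSO 2, TGFBI also without DMSO 1 or DMSO 3 and INHBE without DMSO 3, at adjusted p of at most 0.208.

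Fibrinogen is assembled from 3 chains whose genes lie side by side on chromosome 4 and are raised together by interleukin 6 through STAT3 in the acute phase. All 3 chain transcripts were lower in both BMP6 libraries than in any DMSO library, and FGA and FGG fell. FGA stood at 8737, 12204 and 13126 FPKM in DMSO and at 610 and 718 FPKM after BMP6, 16.9-fold lower (log2 change -4.08 ± 0.45, limma adjusted p = 0.0147). FGG stood at 6642, 8613 and 9037 FPKM against 1367 and 648, 8.52-fold lower (log2 change -3.09 ± 0.51, limma adjusted p = 0.0440). FGB stood at 1193, 1527 and 1428 FPKM against 451 and 501 and was not called (log2 change -1.53 ± 0.38, limma adjusted p = 0.103). FGB was called under median-of-ratios scaling, quantile normalization and GC centring, at adjusted p of 0.0421, 0.0373 and 0.0202. FGA and FGG lost their calls without BMP6 1, DMSO 2 or DMSO 3, at adjusted p of 0.0525 to 0.202. In bulk RNA, fewer cells making a transcript and less of it per cell cannot be told apart.

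The 3 fibrinogen promoters are shown because each holds the word CTGGGA, through which the interleukin 6 response of these genes is known to run, in capitals on either strand (TCCCAG is its complement). They are from RefSeq (GRCh38.p14), the 180 bases before each start on the strand of the gene: FGA at chr4:154590743-154590922 (- strand), FGB at chr4:154562800-154562979 (+ strand) and FGG at chr4:154612657-154612836 (- strand).
FGA: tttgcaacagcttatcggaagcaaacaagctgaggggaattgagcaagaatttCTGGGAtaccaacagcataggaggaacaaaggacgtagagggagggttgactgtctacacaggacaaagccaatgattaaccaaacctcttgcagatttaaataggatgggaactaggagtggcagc
FGB: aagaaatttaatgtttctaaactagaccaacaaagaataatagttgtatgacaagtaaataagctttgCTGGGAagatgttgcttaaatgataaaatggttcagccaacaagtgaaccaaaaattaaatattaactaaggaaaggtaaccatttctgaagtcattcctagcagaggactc
FGG: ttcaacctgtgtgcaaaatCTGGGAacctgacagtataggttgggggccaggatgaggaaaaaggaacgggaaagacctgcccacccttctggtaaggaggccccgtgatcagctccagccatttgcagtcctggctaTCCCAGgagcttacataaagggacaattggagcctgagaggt
The word begins 127 bases before the start of FGA, 112 before FGB, and 161 and, on the other strand, 42 before FGG. It occurs in 28.8% of all 27305 promoters, in 31.4% of those of tested genes, in 12 of the 31 matched genes called lower and in 7 of the 22 called higher. HAMP (8 bases before the start) and FURIN (41 bases) hold it too, in small letters above.

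Of 17 tested acute phase and interleukin 6 genes 2 fell, FGA and FGG, and at an unadjusted p under 0.05 there were 3 higher and 5 lower. SAA4, a constitutive serum amyloid A, stood at 109, 170 and 196 FPKM in DMSO against 468 and 1203, and SERPINA3, antichymotrypsin, at 38.1, 122 and 198 against 301 and 408, both higher without overlap and not called. SAA4 was called higher under median-of-ratios scaling, quantile normalization and GC centring. IL6ST, the shared signalling receptor gp130, had 43.4, 45.5 and 48.2 FPKM against 499 and 86.7, and STAT3 150, 111 and 108 against 98.2 and 91.9. JAK2, a kinase of that receptor, had 7.3, 6.66 and 6.04 FPKM in DMSO, 1.76 in BMP6 1 and was listed at 0 in BMP6 2 (log2 change -2.20 ± 0.55, limma adjusted p = 0.107), and was called lower under GC centring. CRP, SAA1, SAA2 and LBP were listed at 0 in all 5 libraries.

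The 15 largest named rises were led by genes listed at 0 or nearly so in DMSO. LCN15, a lipocalin, was listed at 0 in all DMSO libraries and stood at 314 FPKM in BMP6 1 and 2286 in BMP6 2 (log2 change 9.73 ± 0.77, limma adjusted p = 0.0038). CRYAB, a small heat shock protein, went from 0 in all DMSO libraries to 54.9 and 126 FPKM (log2 change 6.40 ± 0.53, limma adjusted p = 0.0038). CYP24A1, the enzyme that inactivates vitamin D, was listed at 0, 0 and 1.79 FPKM in DMSO and stood at 80.3 and 97.3 FPKM (log2 change 5.99 ± 0.56, limma adjusted p = 0.00761). For each of these 3 genes both BMP6 libraries lie far above DMSO, and the BMP6 values are closest to each other for CYP24A1. Of 6 tested genes of vitamin D metabolism CYP24A1 alone was called, and VDR, the receptor, stood at 0, 2.33 and 2.93 FPKM against 1.7 and 1.92.

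CLIC3, a chloride intracellular channel gene, went from 0 in every DMSO library to 18.9 and 283 FPKM. ARG1, the arginase of the urea cycle, went from 0 to 38.1 and 8.78 FPKM, SYT8, a synaptotagmin, from 0 to 8.61 and 29.5, and HR, the corepressor hairless, from 0 to 15.7 and 15.2. SCNN1A, a subunit of the epithelial sodium channel, had 0, 0 and 2.19 FPKM in DMSO and 64.1 and 40.6 FPKM after BMP6. SLC16A6, a monocarboxylate transporter, had 0, 1.05 and 0 against 27.7 and 18.9, and TEX56P, a pseudogene, 0, 0 and 3.1 against 24.1 and 29.8. S100P, a calcium-binding protein, was abundant in both groups, with 123, 166 and 384 FPKM against 2751 and 7025. Log2 changes of these 8 genes were between 4.04 and 6.23, all called. Of the 15, 7 were called without BMP6 1, 12 without DMSO 1, 3 without DMSO 2 and 6 without DMSO 3.

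Among genes above 0 in all 5 libraries, 24 rose and 15 fell. AKR1C1 and AKR1C2, aldo-keto reductases of steroids, stood at 184, 426 and 698 FPKM and at 219, 433 and 468 FPKM in DMSO, and at 11223 and 5298 and at 6078 and 3792 FPKM after BMP6. They rose 20.2-fold and 13.5-fold, but they are near-identical copies between which reads could be split. SPP1, osteopontin, stood at 87.1, 200 and 202 FPKM against 2553 and 1528, a 12.9-fold rise (log2 change 3.69 ± 0.47, limma adjusted p = 0.021). CYP19A1, the aromatase that makes oestrogens, stood at 9.47, 10.2 and 6.82 FPKM against 108 and 63.1, an 8.59-fold rise. CPLX2, a complexin, had 89.7, 54.3 and 68.2 FPKM against 593 and 599, but an unnamed gene model overlaps it. HSPA1L (2.66, 7.13 and 7.63 against 71.1 and 70.2) has close relatives next to it, and SMIM7P1 (2.02, 1.65 and 4.6 against 28.3 and 71.4) is a pseudogene, so both are uncertain. Of the 10 largest rises in this class, S100P and ID3 included, none was called without BMP6 1 or DMSO 2, 7 without DMSO 1 and 1 without DMSO 3.

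The largest falls were of genes listed at 0 in both BMP6 libraries. SPINK1, a trypsin inhibitor, stood at 94.9, 140 and 111 FPKM in DMSO and was listed at 0 in BMP6 1 and BMP6 2 (log2 change -6.84 ± 0.38, limma adjusted p = 0.000445). SMPX, a small muscle protein, stood at 38.6, 44.2 and 44.2 FPKM (log2 change -5.43 ± 0.44, limma adjusted p = 0.0038), and TNNT2, cardiac troponin T, at 47.8, 60 and 43.9 FPKM, both against 0 and 0. CYP7A1, the rate-limiting enzyme of bile acid synthesis, stood at 21.6, 27.1 and 25.2 FPKM against 0 and 0, and was the 1 gene called of 14 in bile acid synthesis and transport (log2 change -4.67 ± 0.45, limma adjusted p = 0.00761). UGT1A6, a glucuronosyltransferase whose exons are shared within its locus and whose value is uncertain for that reason, stood at 27.4, 26.7 and 15.3 FPKM against 0 and 0.

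SLC3A1, a subunit of the cystine and dibasic amino acid transporter, the proton channel HVCN1, PAQR6, the mucin MUC15, the sulfotransferase SULT1C2, CFAP144, CHRNG, a subunit of the fetal acetylcholine receptor, and the tetraspanin TSPAN8 were likewise listed at 0 in both BMP6 libraries. Their DMSO values lay between 9.5 and 53.8 FPKM and their log2 changes between -5.21 and -3.85, all called. NPIPA1, with 245, 456 and 75.7 FPKM against 0.0975 and 6.51, belongs to a duplicated family and is uncertain. Of the 15 largest named falls, FGA included, 6 were called without BMP6 1, 13 without DMSO 1, 2 without DMSO 2 and 6 without DMSO 3.

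Falls above 0 in all 5 libraries included abundant genes. FABP1, the liver fatty acid binding protein, stood at 8564, 12192 and 11475 FPKM in DMSO and at 1403 and 2205 FPKM after BMP6, 6.04-fold lower (log2 change -2.59 ± 0.45, limma adjusted p = 0.0498). LRP11 stood at 139, 126 and 137 FPKM against 13.8 and 23.8, TFF3, a trefoil factor, at 109, 105 and 139 against 14.7 and 23.4, and DAB2, an endocytic adaptor, at 175, 178 and 165 against 18.1 and 44.2. DMSO values of these 3 genes were close to each other, and the falls were 7.03-fold, 6.03-fold and 5.92-fold. FGF17, a fibroblast growth factor, had 41.7, 50.6 and 39.3 FPKM against 1.7 and 4.23, DOC2A 13.1, 17.9 and 18.9 against 0.499 and 1.42, and SLC49A4 102, 82.4 and 46.6 against 3.96 and 11.7. DOC2A was not called under quantile normalization. Of the 10 largest falls in this class, none was called without BMP6 1, DMSO 2 or DMSO 3, and 7 without DMSO 1.

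Of 24 NRF2 target genes, the detoxification and glutathione genes, AKR1C1, AKR1C2 and SLC7A11 rose, with 8 higher and 1 lower at an unadjusted p under 0.05. SLC7A11, the cystine importer, stood at 4.28, 4.71 and 6.28 FPKM in DMSO and at 38.5 and 29 after BMP6 (log2 change 2.51 ± 0.35, limma adjusted p = 0.0266). The related reductases AKR1B10 (10.6, 17.9 and 23.2 against 72.3 and 57.3) and AKR1C3 (1175, 1391 and 1390 against 3144 and 2996) were higher without overlap and not called, and GCLC, of glutathione synthesis, was lower (72.9, 64.9 and 74.3 against 29.8 and 35.3). AKR1B10 was called under all 3 other scalings, and GCLC was called lower under GC centring. SLC7A11 was also the 1 gene called among 29 of the amino acid and integrated stress response, where 14 were higher and 1 lower at an unadjusted p under 0.05, with a median of 0.94. MTHFD2, a mitochondrial folate enzyme called higher under median-of-ratios scaling and GC centring, stood at 65, 93.7 and 116 FPKM against 533 and 315 (log2 change 2.19 ± 0.40, limma adjusted p = 0.0571). Under the 3 other scalings 6, 6 and 9 genes of that list were called higher and none lower. AKR1C1, AKR1C2 and SLC7A11 lost their calls without BMP6 1, DMSO 2 or DMSO 3, at adjusted p of at most 0.164.

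No gene of cell division was called, where 0.348% of all tested genes were called higher and 0.438% lower. Of 33 genes of G2 and mitosis 31 had a positive change, 21 were higher and none lower at an unadjusted p under 0.05, and the median was 1.17. Of all 12341 tested genes 5961 had a positive change, and 8.44% were higher and 10.8% lower at that p. These shares belong beside the counts of the other lists too. PRC1, a protein of the spindle midzone, stood at 25.6, 54.5 and 67.9 FPKM in DMSO and at 222 and 212 after BMP6 (log2 change 2.22 ± 0.43, limma adjusted p = 0.0624), and CCNB1, cyclin B1, at 131, 207 and 212 against 525 and 548. The list had 6, 2 and 10 genes called higher under median-of-ratios scaling, quantile normalization and GC centring. Of 34 genes of DNA replication, 12 were higher and 1 lower at that p, with a median of 0.62. MCM3, a subunit of the replicative helicase, was called higher under all 3 other scalings, CDT1 and CCND1 higher under GC centring, and CCNE2, cyclin E2, lower under median-of-ratios scaling and GC centring. The 13 housekeeping genes had a median of 0.84, with 3 higher at an unadjusted p under 0.05 and none called, and the part of such a shift in these lists was not tested.

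Of 25 genes of hypoxia and glycolysis, 13 were higher and none lower at an unadjusted p under 0.05, none was called and the median was 1.45. LDHA, lactate dehydrogenase, stood at 881, 1166 and 1554 FPKM in DMSO against 5619 and 4368 (log2 change 2.08 ± 0.41, limma adjusted p = 0.0677), and SLC2A1, the glucose transporter GLUT1, at 703, 394 and 563 against 1859 and 1659. The list had 1, 0 and 4 genes called higher under median-of-ratios scaling, quantile normalization and GC centring, LDHA in the first and the last. Of 11 genes of gluconeogenesis and glucose transport, 4 were higher and 1 lower, and of 23 of cholesterol synthesis 5 were higher and 1 lower, with none called in either. The 3 other scalings called 2, 1 and 3 cholesterol genes higher, and GC centring called PCK2, a mitochondrial enzyme of gluconeogenesis, higher. Of 16 genes of fatty acid and triglyceride synthesis, 4 were higher and 2 lower, none called. MLXIPL, the glucose-responsive factor ChREBP, was called lower under all 3 other scalings, DGAT1 lower under quantile normalization and GC centring, and SREBF1 and FADS1 higher under GC centring.

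Of 11 tested replication-dependent histone genes, 8 were lower and none higher at an unadjusted p under 0.05, none was called, and the median was -1.62. The linker histone H1-4 stood at 46.7, 41.4 and 57.5 FPKM in DMSO against 2.55 and 17.1, and H2AC18 at 309, 239 and 286 against 20 and 104. H2AC18 was called lower under all 3 other scalings and H1-4 under GC centring, and the list had 1, 3 and 4 such calls. PolyA RNA was sequenced, and these values hold only histone transcripts with a polyA tail. The difference was larger in BMP6 1, with a median of -2.17, than in BMP6 2, with -1.14.

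Liver transcription factors had 6 of 17 lower and 1 higher at an unadjusted p under 0.05, with none called. The pioneer factors FOXA1 (356, 208 and 192 FPKM in DMSO against 33.3 and 85.6) and FOXA2 (385, 314 and 343 against 27.3 and 131) were lower without overlap, and HNF4A, the hepatocyte nuclear factor, overlapped between groups (208, 227 and 296 against 381 and 191). FOXA1 was called lower, with GATA6, under median-of-ratios scaling, and with GATA6 and FOXA2 under quantile normalization and GC centring. Of 23 genes of albumin, apolipoproteins and other secreted proteins, 1 was higher and 2 lower and none was called. Of 24 coagulation and complement genes the counts were 2 and 1, and none was called. TTR, transthyretin, was called lower under quantile normalization and C4BPA, a complement regulator, higher under GC centring. Among 16 genes of PPAR-alpha and fatty acid oxidation FABP1 fell, and among 16 cytochrome P450 and conjugating enzymes UGT1A6 fell, with no rise in either list.

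Calls were few among the inflammatory and growth factor lists and over all tested genes, of which 0.348% were called higher and 0.438% lower. At such shares a list of this size without a call says little about its pathway. CXCL8, the chemokine interleukin 8, fell from 5.58, 7.83 and 7.59 FPKM to a listed 0 in both BMP6 libraries (log2 change -2.99 ± 0.49, limma adjusted p = 0.0442), the 1 call among 11 NF-kappa B and chemokine genes. It lost its call without BMP6 1, DMSO 2 or DMSO 3, at adjusted p of at most 0.183, and was not called under quantile normalization. Of 24 immediate early and ERK feedback genes none was called, with 4 higher and 3 lower at an unadjusted p under 0.05. DUSP6, an ERK phosphatase, stood at 435, 495 and 368 FPKM against 75 and 175, and EGR1 at 147, 185 and 171 against 79.2 and 32.5. DUSP6 was called lower under all 3 other scalings, SPRY4 higher under median-of-ratios scaling and GC centring, and CCND1, cyclin D1, higher under GC centring. EGR1 was called lower with DMSO 1 and BMP6 1 left out. Of 17 heat shock genes CRYAB alone was called. No gene was called among 16 of the interferon response, 9 of the Notch pathway, 11 WNT targets, 17 epithelial and mesenchymal genes, 9 of metallothioneins and zinc, 21 of the unfolded protein response and 19 p53 targets. HERPUD1, of the unfolded protein response, was called lower and LFNG, a Notch-modifying glycosyltransferase, higher under all 3 other scalings. The zinc exporter SLC30A1 was called lower under quantile normalization and GC centring, and GC centring called the interferon gene IFI6 lower and the p53 targets FDXR and BBC3 higher. No WNT target was called under any of the 3.

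**Figure D5:**
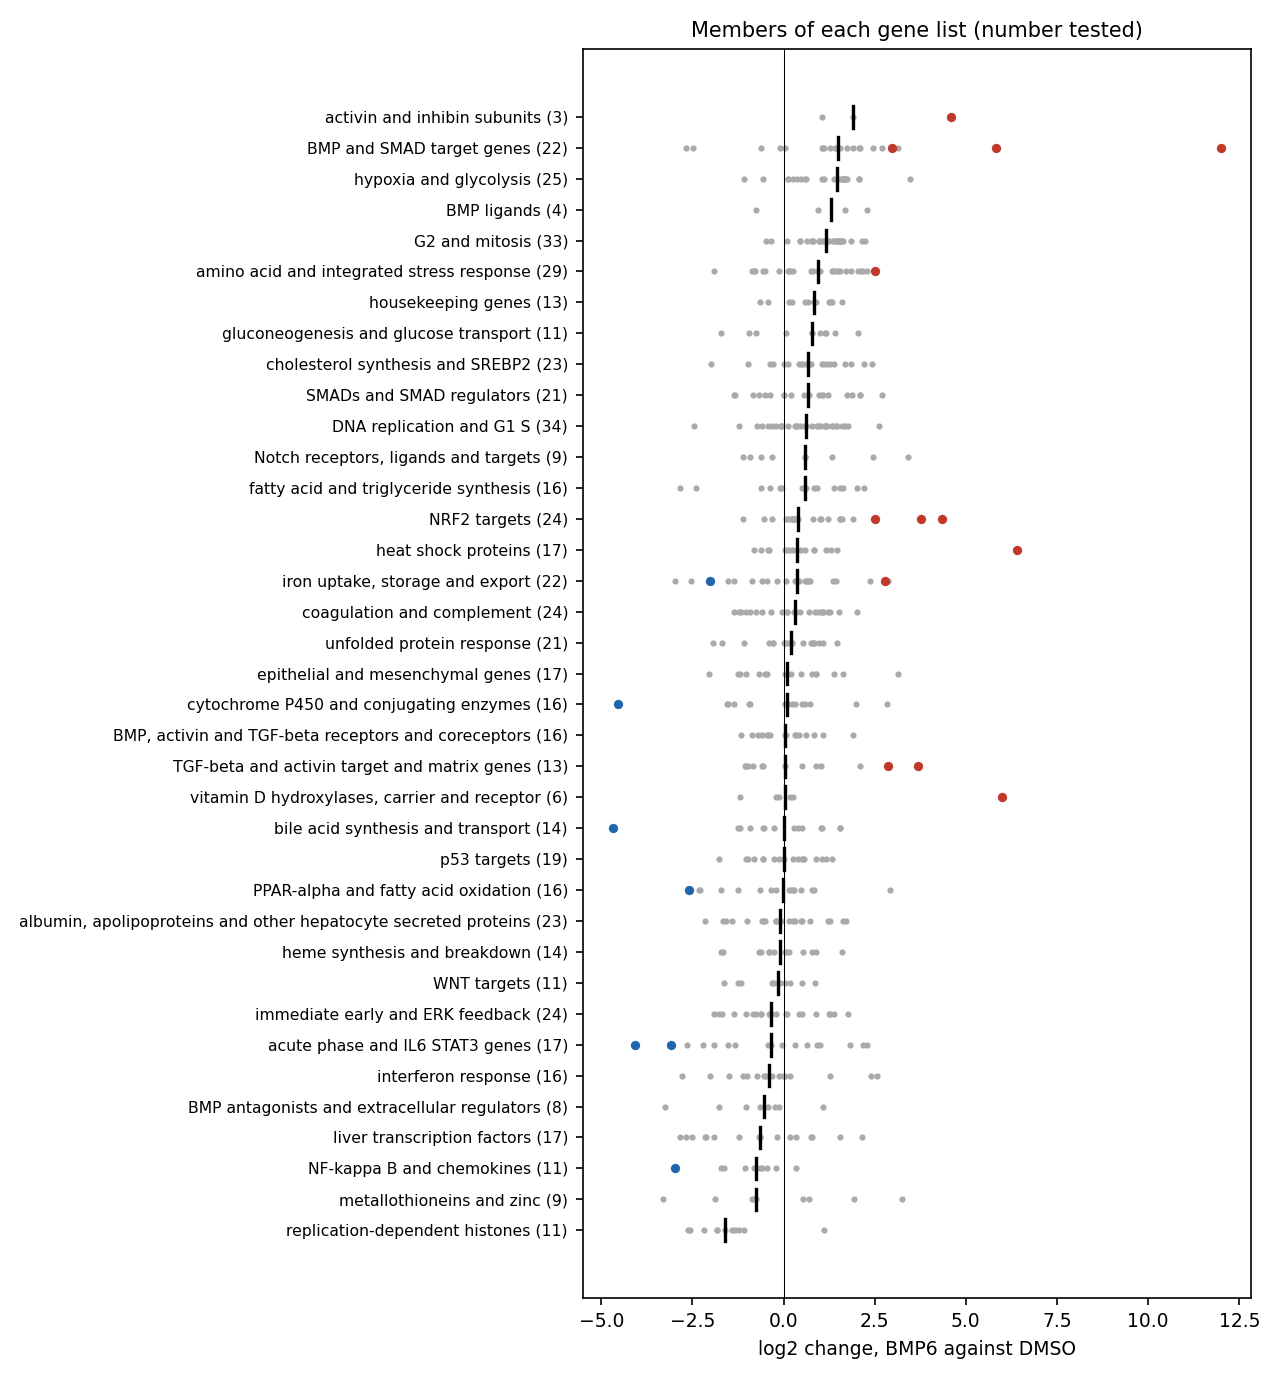
Log2 change after BMP6 (x axis) of each tested member of 37 gene lists with at least 3 tested members (y axis, ordered by the median, number tested in brackets), with red for members called higher, blue for members called lower and black bars at medians. HAMP and ATOH8 lead the BMP and SMAD target list, whose median is 1.49, and replication-dependent histones have the lowest median, -1.62.

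The cells carried the markers of their label in all 5 libraries. The 10 hepatocyte markers were all tested, with a summed level of 178610 to 222920 FPKM in DMSO and of 226160 and 205760 FPKM in BMP6 1 and 2. ALB, serum albumin, was the most abundant transcript in both BMP6 libraries (143115 and 59633 FPKM) and APOA2 in the DMSO libraries. Of 9 endothelial markers 7 were at 0 throughout and the sum did not exceed 1.71 FPKM. Of 10 fibroblast markers 7 were at 0 in all 5 libraries, COL1A1, COL1A2 and COL3A1 among them, and of 10 lymphocyte markers 8, PTPRC, CD3D and CD3E among them. The macrophage markers CD163, CSF1R, MARCO, VSIG4, C1QA and C1QB were at 0 throughout, and LYZ (4622, 3219 and 4807 FPKM against 1493 and 2344) made up most of a sum of 3273 to 4883 FPKM in DMSO against 1562 and 2401 FPKM after BMP6. Of 6 tested cholangiocyte markers SPP1 rose, while SOX9 (1303, 751 and 882 FPKM against 104 and 285) and EPCAM (743, 393 and 343 against 67.7 and 185) were lower without overlap and not called. SOX9 was called lower under all 3 other scalings, and EPCAM under quantile normalization.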

How the data were processed

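PolyA RNA of HepG2 cells was sequenced on a Genome Analyzer II, per the labels' protocols, with groups and replicate numbers taken from the sample titles. The files deposited by the authors hold 1 FPKM value per Ensembl gene and library, per the file headers. Per the submitters' processing notes the tools were TopHat 1.1.0 with Bowtie, then Cufflinks 1.0.3 and Cuffdiff, on hg18, and no settings are listed. How FPKM was scaled between libraries was not stated. Read depth could not be worked out, because the interval deposited beside each FPKM tracks that FPKM and not a read number (2 square roots either side, to a tolerance of 5%, in 78.5% to 84.3% of genes).

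Testing took the 12341 genes (11633 with a symbol) that reached 1 FPKM in 2 or more of the 5 libraries, and ran on log2(FPKM + 1) with limma 3.58.1 in R 4.3.3. All 8 libraries entered the fit to share the estimate of spread (5 residual and 3.25 prior degrees of freedom), with an intensity trend, two-sided tests, Benjamini-Hochberg adjustment and a threshold of 0.05. The script was tested on simulated data. It called 14% of 100 genes changed by 2 on the log2 scale and 82% of 100 changed by 4. Of its 105 calls, 9 were of unchanged genes. A gene not called may therefore still have changed. The simulated changed genes started well above 0, and noise was normal, independent and of the same spread in all libraries. Changes from a listed 0 and shifts shared by many genes of a library were not simulated. The rates may thus not hold for these data. HAMP also had an exact permutation test (SciPy 1.17.1). Transcript GC content came from GENCODE transcripts and was available for 94.9% of tested and 86.6% of called genes. Promoters were searched in RefSeq's table for 250 bases before each start. Exon structure in hg18 was not analysed here.

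The comparison, the 37 gene lists and 6 marker lists were chosen with earlier results of these data known. Named were canonical BMP targets, called list members (up to 6 per list), the 15 largest rises and falls called without overlap, the 10 largest each among genes above 0 in all 5 libraries, and genes called in every fit without 1 library. Genes without a symbol, unnamed loci and small RNAs were left out (5 rises and 12 falls). Uncalled members named beside them were chosen after their values were seen. Alternatives were other filters, pseudocounts, scalings, variance models, a replicate block, leaving out libraries and, chosen after seeing the data, GC centring and leaving out DMSO 1 with BMP6 1. Some genes that the rule names are not reported here.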

Additional observations from a re-analysis of the deposited data

How the results depend on the processing

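The numbers of genes called, 43 higher and 54 lower, depended on the settings. They were 6 and 11 with the 5 libraries only, 55 and 91 with no filter, 23 and 16 with a mean of at least 5 FPKM, 43 and 63 with the filter over all 8 libraries, and 16 and 8 among genes above 0 in all 5 libraries. They were 25 and 25 with a pseudocount of 0.1, 66 and 117 with 5, 151 and 221 with median-of-ratios scaling, 142 and 213 with quantile normalization, and 56 and 119 without the intensity trend. With arrayWeights they were 3 and 2, with DMSO 1 and BMP6 1 left out 42 and 72, and with GC centring, over 11715 genes, 291 and 289, the last 2 settings being chosen after seeing the data. Leaving out 1 library gave 3 to 432 higher and 2 to 1544 lower, the highest without BMP6 2 and the lowest without DMSO 2. The cause of these differences was not tested, beyond the fewer genes or libraries of some settings. BAMBI, at 0.05, reversed to -0.16 with arrayWeights, to -0.51 without BMP6 2 and to -0.24 without DMSO 1, and leaving out 1 library gave -0.51 to 0.61.

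The labels give DMSO and BMP6 libraries the same replicate numbers. Same-numbered libraries had deviations from their group means correlated at 0.0551 and -0.00198 over only 2 pairs, so the numbers were not taken to pair the samples. A fit with the replicate block called 3 genes higher and 1 lower, with HAMP at 11.94 and BAMBI reversed to -0.00938.

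Depth is unknown, so it cannot be said which values listed at 0 lay below detection.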
